A study of Oryza sativa with 40 samples.

Results

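The genes described here carry out nitrate reduction and ammonium assimilation. They are 2 nitrate reductases, 1 nitrite reductase, 2 glutamine synthetases and the ferredoxin-dependent glutamate synthase. They were chosen by locus identifier, and all 6 have a row with a fitting product name among the 19308 genes of the deposited table.

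Nitrate reductase turns nitrate into nitrite in the cytosol, and nitrite reductase turns nitrite into ammonium in the plastid with electrons from ferredoxin. Glutamine synthetase then joins ammonium to glutamate, and glutamate synthase passes the amide group on to 2-oxoglutarate. In leaves the plastid glutamine synthetase and the ferredoxin-dependent glutamate synthase also recapture the ammonium that photorespiration releases, while cytosolic glutamine synthetase is known for a role in phloem tissue and nitrogen export.

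Leaves of rice (Oryza sativa) cultivar IR64, an indica variety, were measured by total RNA sequencing after plants in hydroponic tanks were moved to another temperature. All plants first grew at 30 °C by day and 25 °C by night. Of the 12 tanks 4 kept that regime (warm), while 4 went to 40 °C by day and 35 °C by night (hot) and 4 went to 25 °C by day and 20 °C by night (cold). The middle section of leaves that had expanded before the move was taken. Each of the 10 groups has 4 libraries; warm leaves were sampled at 0, 2, 6 and 24 h, and leaves from both shifts at 2, 6 and 24 h. The move was made 3 h into the day, so 24 h falls at the time of day of 0 h. Hot and cold leaves were set against warm leaves sampled at the same hour. The labels do not say which tank or plant gave which library, so p-values measure the spread between libraries.

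Values are CPM, reads scaled to an adjusted size of each library, with total reads of 1830817 to 9628451 per library. The deposited scaling thus did not follow total reads alone. In hot 24 h replicate 1, with 6999344 reads, 1 read stood for 0.202 CPM. In warm 6 h replicate 4, with 8046804 reads, it stood for 0.0976 CPM. Other scalings are among the alternative settings given below. Changes are differences of mean log2 CPM with the standard error (SE) of a limma fit over all 40 libraries, n = 4 per group. A change counts as called where its p, adjusted by the Benjamini-Hochberg method across the whole table, was below 0.05. The transcript lengths are not used here, so levels are compared between groups and not between genes. Libraries of warm leaves ran on sequencing lanes 1 and 2, hot on lanes 2 and 3, and cold on lanes 3 and 4. Hot and warm libraries thus share only lane 2, and warm and cold libraries share none, so lane and cold cannot be told apart. Warm 0 h replicate 1 and hot 24 h replicate 1 stood apart from their group mates, with a mean correlation over all genes of 0.860 and 0.894, against 0.905 to 0.970 in all other libraries. Leaf mesophyll markers were high throughout, at a summed 10483 CPM or more in every library. In whole leaf sections, fewer cells of a type and less RNA per cell cannot be told apart.

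The chromosome 8 nitrate reductase (LOC_Os08g36480) lies at chr8:23033230-23038596 on the plus strand of build IRGSP-1.0, and the chromosome 2 nitrate reductase (LOC_Os02g53130) at chr2:32513739-32517155 on the minus strand. The nitrite reductase (LOC_Os01g25484) lies at chr1:14446910-14453474 on the plus strand. The plastid glutamine synthetase (LOC_Os04g56400) is at chr4:33624332-33631095 and the cytosolic one (LOC_Os02g50240) at chr2:30674776-30678659, both on the minus strand. The table names both only as glutamine synthetase, so the compartment is background. The ferredoxin-dependent glutamate synthase (LOC_Os07g46460) is at chr7:27723015-27738539 on the minus strand. None of the 6 overlaps another row of the table.

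**Figure D1:**
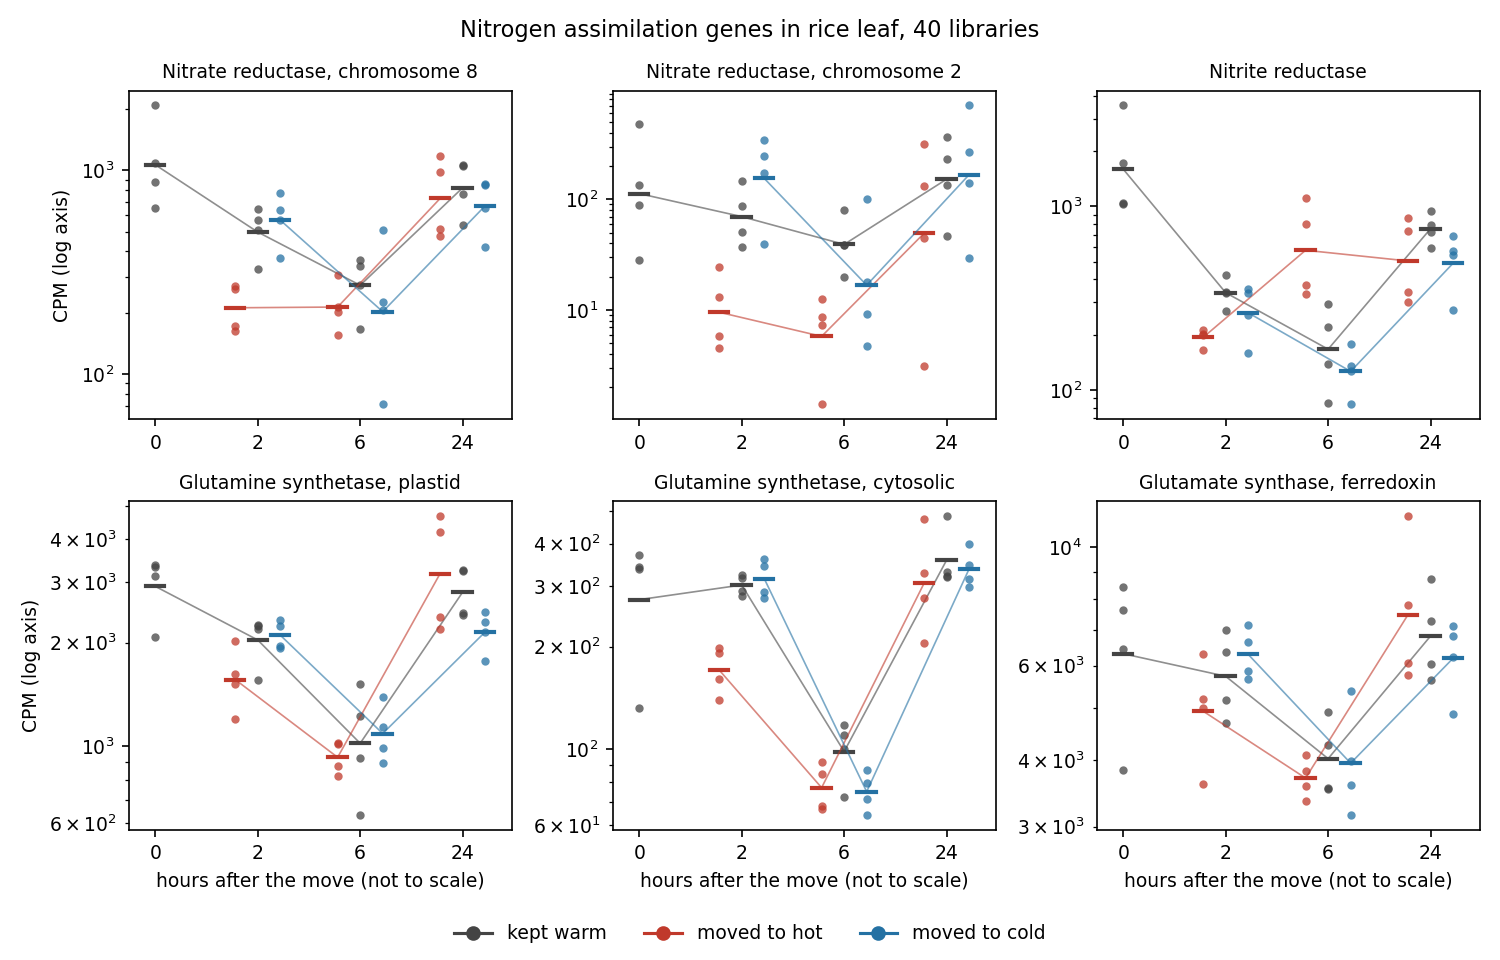
CPM on a log axis for each of the 6 genes in all 40 libraries (points), with the geometric mean of each group of 4 (bars), by hours after the move. The glutamine synthetases and the glutamate synthase share a low point at 6 h at every temperature, whereas nitrite reductase in hot leaves stood at 335 to 1105 CPM at 6 h, above all 4 warm libraries at 85.0 to 295 CPM.

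More members were called from 6 to 24 h than in any comparison of temperatures, and so were more of all genes. In moved leaves the hour of day is also the time since the move. In warm leaves 5 of the 6 changed over the hours 0, 2, 6 and 24 in limma's F test, where 44.7% of all genes were called. The chromosome 2 nitrate reductase did not pass (adjusted p = 0.397). From 6 h to the next morning 5 of the 6 rose in warm leaves, where 32.6% of all genes were called, 15.5% higher and 17.1% lower. In hot leaves 5 of the 6 rose over the same interval, where 43.2% of all genes were called, 21.5% higher and 21.7% lower. In cold leaves all 6 rose, where 29.7% were called and 15.2% were higher. From 2 to 6 h in warm leaves 2 members fell, where 19.6% of all genes were called, 9.04% higher and 10.5% lower. In cold leaves all 6 fell, where 27% were called, 13% higher and 14% lower. In hot leaves 2 fell and 1 rose, where 25% were called, 10.8% higher and 14.2% lower. The 1 that rose in hot leaves was nitrite reductase. The leaf mesophyll markers moved over the same hours: 3 of the 4 rose and 0 fell from warm 6 h to warm 24 h, with a median of 1.42 on the log2 scale, and their summed level in warm leaves ran from 10483 to 34144 CPM at 6 h and from 64845 to 110121 CPM at 24 h. Their part in these changes was not tested.

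Each comparison with warm leaves of the same hour called at most 1 member. At 2 h of heat 1 of the 6 was called, the cytosolic glutamine synthetase, which was lower; 8.2% of all genes were called, 3.63% higher and 4.58% lower. At 6 h of heat 1 was called, nitrite reductase, which was higher; 6.9% of all genes were called, 2.39% higher and 4.51% lower. At 24 h of heat 0 of the 6 were called in the limma fit, as were 0% of all genes; without adjustment 0 of the 6 and 1206 of all genes had a p under 0.05. The cold comparisons called 0 of the 6 at each hour, as well as 0% of all genes, and again 0 of the 6 had an unadjusted p under 0.05; without adjustment 1251, 869 and 1457 of all genes did at 2, 6 and 24 h. All 6 fitted changes at 2 h of heat lay below 0. Their median was -0.82 on the log2 scale, against 0.01 over all genes. Hot and warm ranges did not overlap for both nitrate reductases, nitrite reductase and the cytosolic glutamine synthetase. How many of all genes had ranges apart was not counted. Without adjustment 3 of the 6 members and 4560 of all 19308 genes had a p under 0.05 in this limma comparison.

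**Figure D2:**
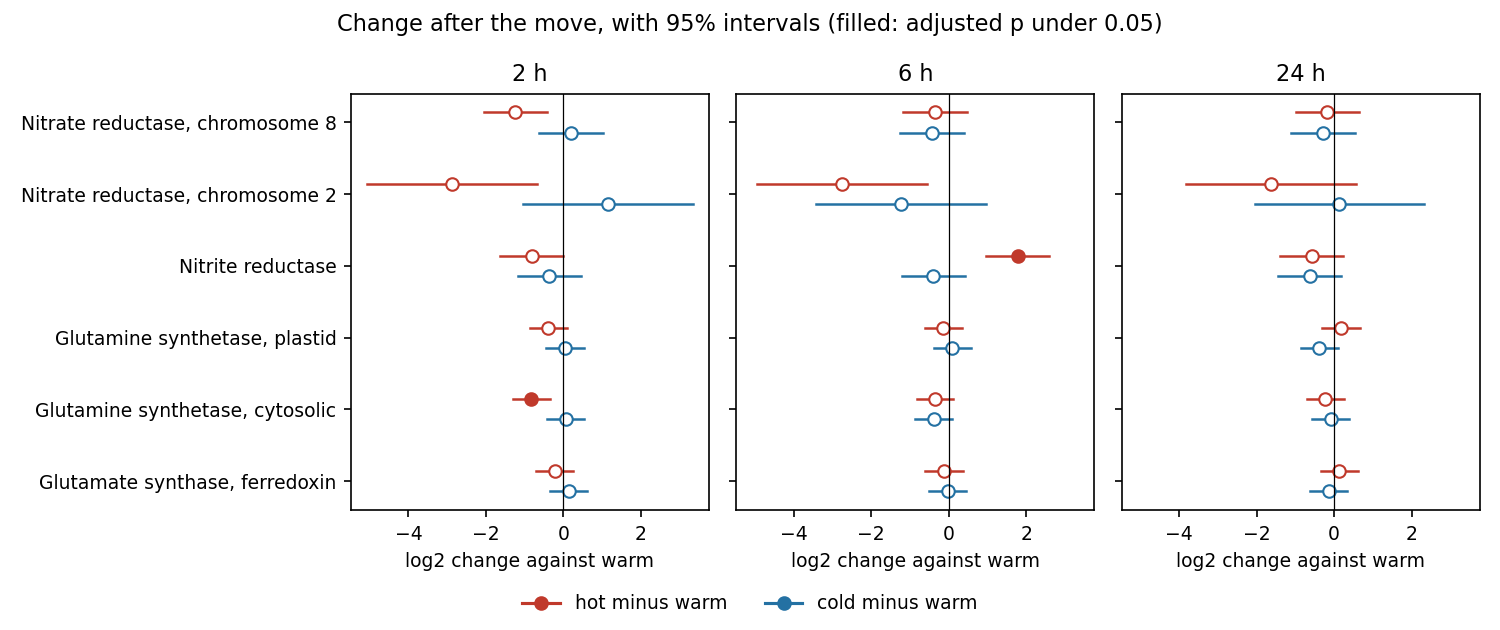
Log2 change of each gene against warm leaves of the same hour, hot in red and cold in blue, with 95% intervals of the limma fit (n = 4 libraries per group); filled points passed an adjusted p under 0.05. The 2 filled points are cytosolic glutamine synthetase at 2 h of heat (-0.83) and nitrite reductase at 6 h of heat (1.79).

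The chromosome 8 nitrate reductase, one of the enzymes of the first step, stood lower in all 4 hot libraries than in all 4 warm ones at 2 h. Its values were 270.1, 164, 262 and 173 CPM in hot leaves and 645, 507, 329 and 568 CPM in warm leaves. The change of -1.23 ± 0.40 (SE) on the log2 scale just missed the threshold (adjusted p = 0.0519); it passed in 7 of 11 alternative settings and in 0 of 8 fits without 1 library. Within lane 2 the difference was -1.43, with 2 hot libraries and 1 warm.

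Cold leaves held 776, 639, 571 and 371 CPM of this transcript at 2 h, all above the hot libraries. Hot was below cold by a called change of -1.43 ± 0.40 on the log2 scale (adjusted p = 0.0144). Between hot and cold at 2 h 3 of the 6 members were called, all lower, where 15.1% of all genes were called, 6.73% higher and 8.32% lower. The call for the chromosome 8 gene was lost with quantile normalization (adjusted p = 0.0821) and without hot 2 h replicate 4 or cold 2 h replicate 1 (adjusted p up to 0.0534). By 6 h the hot libraries at 213, 202, 156 and 307 CPM overlapped the warm ones at 273, 361, 337 and 166 CPM, and the change was -0.35 ± 0.40 (adjusted p = 0.699). The hot groups at 2 and 6 h thus lay close together, a difference of 0.01 ± 0.40 with a 95% interval of -0.81 to 0.83 (adjusted p = 0.988).

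In warm leaves the chromosome 8 gene started at 2079, 649, 1088 and 871 CPM at 0 h. It fell by 2 h, a change of -1.10 ± 0.40 (adjusted p = 0.0475), in a comparison where 22.3% of all genes were called, 12.6% higher and 9.69% lower, and 2 of the 6 members were called, both lower. Without warm 0 h replicate 1, the library at 2079 CPM that stood apart, the change was -0.77 (adjusted p = 0.224), and the call stood in 2 of 8 fits without 1 library. From 2 to 6 h in cold leaves it fell by a change of -1.49 ± 0.40 (adjusted p = 0.00548), a call lost without cold 6 h replicate 4 (adjusted p = 0.0559). From 6 to 24 h it rose by 1.59 ± 0.40 in warm, 1.77 ± 0.40 in hot and 1.73 ± 0.40 in cold leaves (adjusted p = 0.00230, 0.000553 and 0.00108). At 24 h hot leaves held 513, 474, 978 and 1174 CPM and warm leaves 762, 536, 1056 and 1048 CPM, with overlapping ranges.

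The chromosome 2 nitrate reductase, the other enzyme of the first step, was the most variable of the 6. Its residual spread within groups was 1.63 on the log2 scale, above that of 99.9% of the 13347 genes with a mean log2 value of at least 2, while the chromosome 8 gene had 0.607. At 24 h the warm libraries ranged from 46.6 to 369 CPM, the hot ones from 3.14 to 317 CPM and the cold ones from 29.4 to 707 CPM. Groups of 4 therefore give wide intervals for this gene. The lowest hot value at 24 h belongs to replicate 1, the library that stood apart.

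At 2 h of heat its values were 24.3, 4.54, 13.1 and 5.78 CPM, against 147, 87.4, 36.9 and 50.4 CPM in warm leaves, and the ranges did not overlap. The change was -2.87 ± 1.08 (95% interval -5.06 to -0.68) and did not pass (adjusted p = 0.0936). At 6 h of heat 7.27, 8.73, 1.41 and 12.6 CPM stood against 79.6, 19.7, 38.9 and 38.7 CPM, again without overlap, with a change of -2.76 ± 1.08 (adjusted p = 0.125).

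Set against cold leaves of the same hour, at 174, 343, 245 and 39.5 CPM, the hot libraries at 2 h were lower, and this difference passed at -4.02 ± 1.08 (adjusted p = 0.0102). It was called in all 11 alternative settings and in all 8 fits that left out 1 library. In cold leaves the gene fell from 2 to 6 h, to 101, 9.25, 17.9 and 4.75 CPM, a change of -3.21 ± 1.08 on the log2 scale (adjusted p = 0.0249). By the next morning it rose again by 3.32 ± 1.08 (adjusted p = 0.0178), and in hot leaves by 3.09 ± 1.08 (adjusted p = 0.0199). Leaving out single libraries ended each of these last calls. The fall in cold leaves was lost without cold 2 h replicate 2 or 3 or cold 6 h replicate 2 or 4 (adjusted p up to 0.0961), and the later rise without cold 6 h replicate 2 or 4 or cold 24 h replicate 2 (up to 0.0899). The rise in hot leaves was lost without hot 6 h replicate 3 or hot 24 h replicate 3 or 4 (up to 0.11). Without single libraries the rise in cold leaves ran from 2.63 to 4.18. The rise in hot leaves ran from 2.2 to 4.42, the highest without hot 24 h replicate 1, the library that stood apart.

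A further gene annotated as nitrate reductase, LOC_Os08g36500, starts 12824 bases beyond the end of the chromosome 8 member on the opposite strand. Whether reads were shared between the genes of this annotation was not tested, so its values are uncertain. It held 11.6, 4.72, 6.62 and 5.10 CPM at 2 h of heat and 21.1, 21.6, 18.1 and 34.8 CPM in warm leaves. It was lower in hot leaves by a called change of -1.82 ± 0.42 (adjusted p = 0.00590), which stood in all 11 alternative settings and all 8 fits without 1 library.

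Nitrite reductase, the enzyme of the second step, was the 1 member with a fitted change above 0 at 6 h of heat. Its values were 372, 1105, 335 and 799 CPM in hot leaves and 139, 222, 295 and 85.0 CPM in warm leaves. Replicates 2 and 4 were the high hot libraries, and the lowest hot value was still above the highest warm one. The rise of 1.79 ± 0.40 on the log2 scale, 3.45-fold, passed (adjusted p = 0.00430).

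The call stood in 10 of 11 alternative settings and in all 8 fits without 1 library. With lane as a term the rise was 1.51 and did not pass (adjusted p = 0.138). Within lane 2 it was 1.24, with 1 hot library and 2 warm. Of the leaf mesophyll markers 1 of 4 was called higher at 6 h of heat, with a median of 0.55 on the log2 scale, and their summed level was 22274 to 29030 CPM in hot and 10483 to 34144 CPM in warm leaves. The vascular markers had a median of -1.11 with 0 of 4 called, and summed levels of 15.99 to 33.7 CPM in hot and 28.2 to 48.2 CPM in warm leaves. Of the 36 markers of dividing cells 0 rose and 3 fell, with summed levels of 589 to 644 CPM in hot and 579 to 949 CPM in warm leaves. The 1 guard cell marker was not called, at 9.83 to 13.1 CPM in hot and 11.5 to 17.9 CPM in warm leaves. No marker was at 0 reads throughout either group, and the part of these cell types in the rise was not tested.

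Against cold leaves at 6 h, at 178, 135, 127 and 83.6 CPM, hot leaves were higher by 2.19 ± 0.40, 4.56-fold (adjusted p = 0.000438). Nitrite reductase was the 1 member called between hot and cold at 6 h, where 8.28% of all genes were called, 3.17% higher and 5.11% lower in hot leaves. This call stood in all 11 alternative settings, with an adjusted p of at most 0.0382, and in all 8 fits without 1 library. Within lane 3 the difference was 1.91, with 3 hot libraries and 1 cold.

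The course of nitrite reductase over the day shows where hot leaves departed. Warm leaves held 3533, 1024, 1708 and 1037 CPM at 0 h and 424, 269, 341 and 337 CPM at 2 h, a called change of -2.23 ± 0.40 (adjusted p = 9.3e-05). Without warm 0 h replicate 1, the 3533 CPM library, the change was -1.85 and still passed. At 2 h the hot libraries, at 199, 201, 212 and 165 CPM, were all below the warm ones, with a change of -0.81 ± 0.40 that did not pass (adjusted p = 0.215). From 2 to 6 h nitrite reductase then rose in hot leaves by 1.58 ± 0.40 (adjusted p = 0.00319). The change in warm leaves over those hours was -1.02 ± 0.40 (adjusted p = 0.0685). In cold leaves it was -1.06 ± 0.40, a called fall (adjusted p = 0.0461) that was lost in 6 of 8 fits without 1 library, that is without cold 2 h replicate 1, 2 or 3 or cold 6 h replicate 2, 3 or 4 (adjusted p up to 0.147). From 6 to 24 h it rose by 2.18 ± 0.40 in warm and by 1.96 ± 0.40 in cold leaves (adjusted p = 4.79e-05 and 0.000223), while the change in hot leaves was -0.19 ± 0.40 (adjusted p = 0.728).

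The difference between the heat effects at 6 and at 2 h was 2.60 ± 0.57 and missed the threshold (adjusted p = 0.0632), in a comparison where 0 of the 6 members and 0.0673% of all genes were called. Without both libraries that stood apart it passed (adjusted p = 0.0228), as it did in 3 of 16 fits without 1 library. The heat effect at 24 h against that at 6 h, a comparison added after the data were seen, was -2.37 ± 0.57 and passed (adjusted p = 0.0318); 1 of the 6 members and 1.09% of all genes were called. That call was lost without warm 6 h replicate 1 or 4, warm 24 h replicate 1 or 3, hot 6 h replicate 2 or 4, or hot 24 h replicate 1, where the adjusted p reached 0.0947. By 24 h hot leaves held 341, 299.9, 860.3 and 731 CPM, warm leaves 726, 594, 946 and 795 CPM and cold leaves 572, 539.8, 685 and 272 CPM, with overlapping ranges.

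Warm leaves a day apart also differed in their ranges of nitrite reductase: all 4 libraries at 24 h were below all 4 at 0 h. The change of -1.08 ± 0.40 did not pass (adjusted p = 0.120). Between these mornings 0 of the 6 members passed, against 2.92% of all genes, 1.34% lower. Without adjustment 1 of the 6 members and 3840 of all 19308 genes had a p under 0.05.

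Another gene annotated as ferredoxin-nitrite reductase, LOC_Os02g52730, followed the member closely at a lower CPM. The Pearson correlation of their 10 group means was 0.995, the highest among 10744 genes that carry an informative name and average 2 or more in log2 CPM, and over the 40 libraries it was 0.969. Both carry the same annotation and were counted in the same libraries, and whether they share reads was not tested. At 6 h of heat LOC_Os02g52730 held 28.4, 95.6, 33.6 and 83.4 CPM and in warm leaves 12.7, 16.4, 25.1 and 8.64 CPM. Replicates 2 and 4 were again the high hot libraries.

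LOC_Os02g52730 rose by 1.85 ± 0.41 at 6 h of heat (adjusted p = 0.00419), and lane as a term ended this call as well (adjusted p = 0.149). Its heat effect at 6 h exceeded that at 2 h by 2.78 (adjusted p = 0.0491), a call kept in 5 of 11 alternative settings and 4 of 16 fits without 1 library. A further gene with that annotation, LOC_Os01g25520, lies 8886 bases from the member on the same strand and held 0 to 19 reads per library.

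Nitrate reductase can be set against nitrite reductase within each library, where library size cancels. The log2 CPM of the chromosome 8 nitrate reductase minus that of nitrite reductase was 0.71 ± 0.36 (SD, n = 4) in warm leaves at 6 h and -1.43 ± 0.72 (SD, n = 4) in hot leaves. Every hot library lay below every warm one, a shift of -2.14 with an exact two-sided permutation p of 0.0286, the smallest that 4 against 4 can give. Adjusted over the 12 tests of this kind it was 0.171, so none of the 12 passed. Because 0.0286 is the floor, a lone complete separation among the 12 could not pass after adjustment. The adjusted value therefore does not decide about this shift. The shift is the difference of the fitted changes given above for these genes, so it adds no separate evidence.

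At 2 h the same difference was 1.11 ± 0.13 (SD, n = 4) in cold leaves and 0.56 ± 0.42 (SD, n = 4) in warm leaves, again with no overlap and the same exact permutation p of 0.0286. At 24 h the hot group stood at 0.53 ± 0.23 and the warm group at 0.12 ± 0.23 (SD, n = 4 each; exact permutation p = 0.0571).

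**Figure D3:**
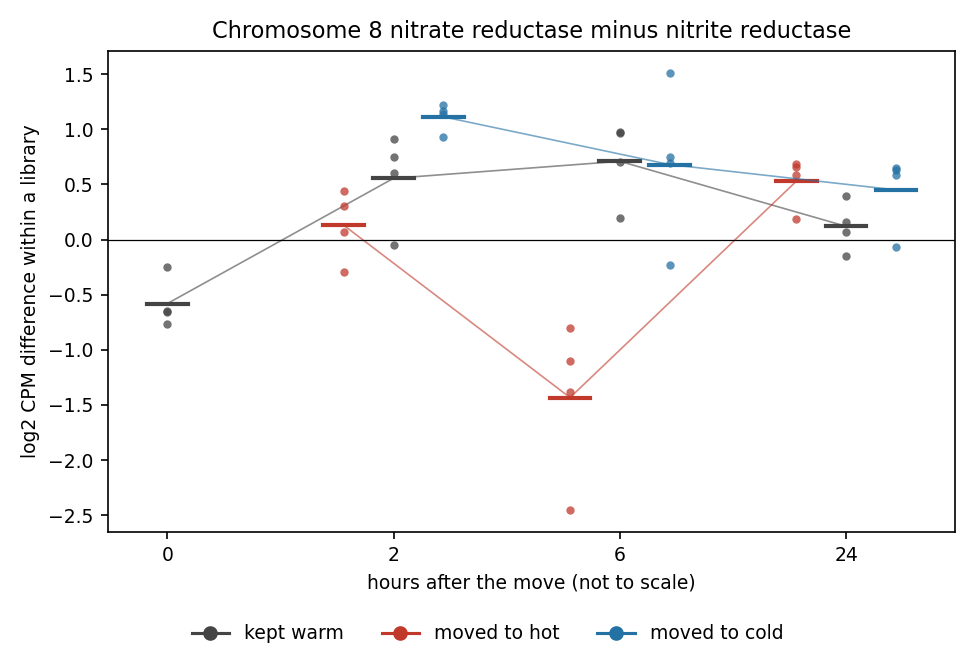
Log2 CPM of the chromosome 8 nitrate reductase minus that of nitrite reductase within each of the 40 libraries (points), with group means (bars), by hours after the move. The 4 hot libraries at 6 h, from -2.45 to -0.80, lie below every other library, while the 4 warm libraries at 6 h lie from 0.20 to 0.97.

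The plastid glutamine synthetase, which takes up ammonium from both nitrite reduction and photorespiration, changed over the sampled hours at all temperatures. Warm leaves held 2075, 3323, 3115 and 3359 CPM at 0 h, 1556, 2198, 2254 and 2232 CPM at 2 h, 924, 1517, 1226 and 633 CPM at 6 h, and 2432, 2414, 3237 and 3249.5 CPM at 24 h. It fell from 2 to 6 h, a change of -0.996 ± 0.239 (adjusted p = 0.00237), and rose by 1.46 ± 0.24 to the next morning (adjusted p = 8.16e-06). In hot leaves the fall was -0.75 ± 0.24 (adjusted p = 0.0186; lost without hot 2 h replicate 2 or hot 6 h replicate 1, adjusted p up to 0.0816) and the later rise 1.77 ± 0.24 (adjusted p = 1.91e-07). In cold leaves they were -0.95 ± 0.24 (adjusted p = 0.00294) and 0.98 ± 0.24 (adjusted p = 0.00164).

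Heat itself gave no called change in this gene. At 2 h hot leaves held 1625, 2018, 1521 and 1198 CPM, overlapping the warm range, with a change of -0.38 ± 0.24 (95% interval -0.87 to 0.10). At 6 h the hot values were 821, 1020.3, 1015 and 879 CPM and the change -0.13 ± 0.24 (95% interval -0.62 to 0.35). With lane as a term this value was above 0, as it was when warm 6 h replicate 2 was left out. At 24 h hot leaves held 4663, 2195, 2369.9 and 4182 CPM and the change was 0.18 ± 0.24.

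The cytosolic glutamine synthetase was the member called at 2 h of heat. It held 191, 198, 139.6 and 161 CPM in hot leaves and 318, 282, 324 and 290.0 CPM in warm leaves, and the ranges did not overlap. The change was -0.83 ± 0.23 (adjusted p = 0.0252). The call was lost with lane in the fit and under quantile normalization (adjusted p up to 0.142). It was also lost in 5 of 8 fits without 1 library (adjusted p up to 0.0905), those that left out replicate 1, 3 or 4 of warm leaves or replicate 3 or 4 of hot leaves. Within lane 2 the difference was -0.58, with 2 hot libraries and 1 warm.

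Cold leaves at 2 h held 344, 277, 362 and 289.8 CPM of it, and hot leaves were lower by a called change of -0.89 ± 0.23 (adjusted p = 0.00870). That call was lost with quantile normalization (adjusted p = 0.0679) and stood in the other 10 settings and all 8 fits without 1 library. The vascular and secondary wall markers are the cellulose synthases CESA4, CESA7 and CESA9 and a sucrose transporter, so the list is not specific to phloem. These markers had a median of -2.10 at 2 h of heat with 1 of 4 above 0 and 0 called. Their summed level was 31.3 to 34.5 CPM in hot and 27.997 to 54.4 CPM in warm leaves, and their part in the change was not tested. The mesophyll markers had 0 of 4 called and a median of -0.14, the dividing cell markers 1 higher and 2 lower of 36, and the guard cell marker was not called.

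The cytosolic gene also changed over the sampled hours, with calls at every temperature. From 2 to 6 h it fell in warm leaves to 100.1, 109.9, 118 and 72.4 CPM, a change of -1.62 ± 0.23 (adjusted p = 2.66e-06). In hot leaves it fell to 68.3, 84.4, 92.0 and 66.9 CPM (-1.15 ± 0.23, adjusted p = 0.000302) and in cold leaves to 87.0, 79.8, 64.2 and 71.5 CPM (-2.07 ± 0.23, adjusted p = 2.35e-08). By the next morning it rose by 1.86, 1.99 and 2.17 in warm, hot and cold leaves, each ± 0.23, with adjusted p of at most 6.49e-08.

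In the order of its group means, the step down from hot 2 h to warm 6 h was the only one between neighbouring groups whose ranges did not overlap. For nitrite reductase the only such step was from warm 0 h to warm 24 h. For the other 4 members every pair of neighbouring groups overlapped. How often such steps occur over all genes was not counted.

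The ferredoxin-dependent glutamate synthase, which closes the cycle with reducing power from photosynthesis, had the smallest residual spread within groups among the 6, 0.313 on the log2 scale. Warm leaves held 3837, 7633, 6448 and 8433 CPM at 0 h, 4692, 6368, 5165 and 6999 CPM at 2 h, 3527, 4921, 4256 and 3539 CPM at 6 h, and 5643, 6034, 7279 and 8716 CPM at 24 h. Hot leaves held 5199, 6315, 5003 and 3604 CPM at 2 h and 3579, 3813, 4090.0 and 3352 CPM at 6 h. The heat changes were -0.22 ± 0.24 (95% interval -0.70 to 0.26) and -0.12 ± 0.24 (95% interval -0.60 to 0.36), and the latter lay above 0 with lane as a term.

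From 6 to 24 h this gene rose by 0.76 ± 0.24 in warm leaves (adjusted p = 0.0116), by 1.02 ± 0.24 in hot leaves (adjusted p = 0.000648) and by 0.65 ± 0.24 in cold leaves (adjusted p = 0.0338). The cold rise passed in 2 of 8 fits without 1 library (adjusted p up to 0.114 in the others), and the warm rise was lost without warm 24 h replicate 4 (adjusted p = 0.0543) and with quantile normalization (0.27, adjusted p = 0.234). From 2 to 6 h it fell in cold leaves, from 6637, 5666, 5866 and 7140.4 CPM to 3156, 3973, 3589 and 5372 CPM, by a change of -0.68 ± 0.24 (adjusted p = 0.0302). That fall was lost in 5 of 8 fits without 1 library and was -0.0961 with quantile normalization. Hot 24 h replicate 1, which stood apart, had the highest value at 11428 CPM; without both such libraries the hot rise was 0.81 and still called.

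Cold left the 6 genes without a called change. Over the 18 cold changes the fitted values ran from -1.22 to 1.15 on the log2 scale, both extremes belonging to the chromosome 2 nitrate reductase, and the smallest adjusted p was 0.733. Their 95% intervals reached from -3.42 to 3.34, the widest being those of the chromosome 2 gene. For the plastid and cytosolic glutamine synthetase and the glutamate synthase the intervals were narrower, from -0.87 to 0.61 over the 3 hours.

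The members also varied together in sets within groups. After the group means were taken out, the 2 nitrate reductases correlated at r = 0.755 over the 40 libraries, and nitrite reductase correlated with the chromosome 8 gene at 0.762 and with the chromosome 2 gene at 0.642. The plastid glutamine synthetase and the glutamate synthase correlated at 0.858. Between these sets the correlations ran from -0.575 to -0.0193. The lowest was that of the chromosome 2 nitrate reductase with the glutamate synthase. Both libraries that stood apart lay at opposite ends of their groups for these genes. Hot 24 h replicate 1 was lowest in the nitrate reductase and highest in the glutamate synthase, and warm 0 h replicate 1 the reverse. No correlation was computed without these libraries. The cytosolic glutamine synthetase, not placed in either set, correlated at 0.460 with the plastid gene and at 0.521 with the glutamate synthase. With the nitrate and nitrite reductases its correlations ran from -0.297 to -0.127. These are descriptions over libraries that share depth and scaling. Over the 10 group means the plastid glutamine synthetase and glutamate synthase correlated at 0.982, and the chromosome 2 nitrate reductase and nitrite reductase at 0.403.

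The genes whose group means were most like each member were named without regard to function. For the chromosome 8 nitrate reductase they were LOC_Os03g57340, annotated as a dnaJ chaperone, at r = 0.969 and LOC_Os03g20380, a protein kinase of the SNF1-like class, at 0.968. For the chromosome 2 nitrate reductase they were LOC_Os03g52910 at 0.969 and LOC_Os12g12170, a cytochrome b5-like protein, at 0.967. Second for nitrite reductase was LOC_Os05g40180, a chloroplast kinase annotated as stt7, at 0.948.

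For the plastid glutamine synthetase the closest were LOC_Os10g35940, a folylpolyglutamate synthetase, at 0.989 and LOC_Os07g36820 at 0.988. The cytosolic gene was closest to LOC_Os06g45040, a B-box zinc finger protein, at 0.990 and LOC_Os02g42920 at 0.987. The glutamate synthase was closest to LOC_Os03g52040, a serine carboxypeptidase homologue, at 0.988 and LOC_Os03g02680, annotated as a cyclin-dependent kinase, at 0.986. With 10 points, values this high are the top of 10744 genes and carry no test.

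Around these enzymes 41 other nitrogen genes were measured, among them further family members, nitrate and ammonium transporters, cofactor synthesis enzymes, electron donors, regulators and enzymes that supply carbon skeletons. At 2 h of heat 3 of the 41 rose and 4 fell, with a median change of -0.05 on the log2 scale against 0.01 over all genes, of which 8.2% were called, 3.63% higher and 4.58% lower. At 6 h of heat 4 rose and 1 fell, with a median of -0.06 against -0.04 over all genes, of which 6.9% were called, 2.39% higher and 4.51% lower. Of the 41, 0 were called at 24 h of heat or in any cold comparison, where 0% of all genes were. Without adjustment 2 of the 41 and 1206 of all 19308 genes had a p under 0.05 at 24 h of heat. At 2, 6 and 24 h of cold 3, 6 and 4 of the 41 did, against 1251, 869 and 1457 of all genes.

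Another glutamate synthase gene had its high point where the ferredoxin-dependent member had its low point. LOC_Os05g48200, annotated as a chloroplast glutamate synthase precursor, had its highest group means at 6 h. It held 11.1, 65.6, 34.8 and 33.3 CPM in warm leaves at 2 h, then 176, 402, 415 and 229 CPM at 6 h, a rise of 3.24 on the log2 scale (adjusted p = 1.98e-05), and 19.6, 47.6, 9.27 and 11.5 CPM at 24 h.

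In heat LOC_Os05g48200 stood at 117, 95.2, 199 and 294 CPM at 2 h and at 1204, 1527, 1530.3 and 1654 CPM at 6 h. These values were above all warm libraries at both hours. Cold leaves at 6 h held 278, 939, 475 and 829 CPM, below every hot library. Of these only the library at 278 CPM lay within the warm range. Neither cold against warm nor hot against cold was called for this gene at 6 h. The rises against warm were 2.397 ± 0.530 (adjusted p = 0.00439) and 2.36 ± 0.53 (adjusted p = 0.00435). At 2 h the call stood in all 11 alternative settings, and at 6 h it was lost only with lane as a term (adjusted p = 0.146). At 24 h its hot and warm values overlapped, with a change of -0.02 ± 0.53.

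LOC_Os02g15870, annotated as molybdenum cofactor biosynthesis protein 1, belongs to the pathway that makes the cofactor of nitrate reductase. It held 44.7, 32.3, 49.7 and 56.5 CPM at 2 h of heat against 16.3, 27.6, 19.8 and 23.3 CPM in warm leaves, and 40.1, 59.6, 33.1 and 57.3 CPM against 21.4, 13.7, 25.9 and 18.1 CPM at 6 h. The groups did not overlap at either hour. Hot leaves exceeded warm leaves of the same hour by 1.07 ± 0.28 (adjusted p = 0.0154) and 1.26 ± 0.28 (adjusted p = 0.00399). Warm leaves at 0 h held 207, 69.9, 68.9 and 82.2 CPM, above every hot library at 2 and 6 h. Both calls were lost with lane as a term. The call at 2 h was also lost in 3 of 8 fits that left out a library. These left out replicate 1 of warm leaves or replicate 3 or 4 of hot leaves. At 2 and 6 h the uncalled heat changes were -1.23 and -0.35 for the chromosome 8 nitrate reductase. For the chromosome 2 nitrate reductase they were -2.87 and -2.76.

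A transporter of the major facilitator family, LOC_Os01g36720, which was listed under nitrate transport by its identifier, was nearly absent from hot leaves at 6 h. It held 5, 1, 5 and 0 reads there, or 0.620, 0.276, 0.815 and 0.0974 CPM with the offset of 0.5 reads, against 9.42, 8.42, 9.63 and 3.17 CPM in warm leaves. The fitted change was -4.36 ± 0.69 (adjusted p = 7.53e-05), a value that depends on the offset because the hot libraries lie near or under the floor of 3 reads. It was called in all 11 alternative settings, in which the fitted value ran from -4.36 to -2.51.

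**Figure D4:**
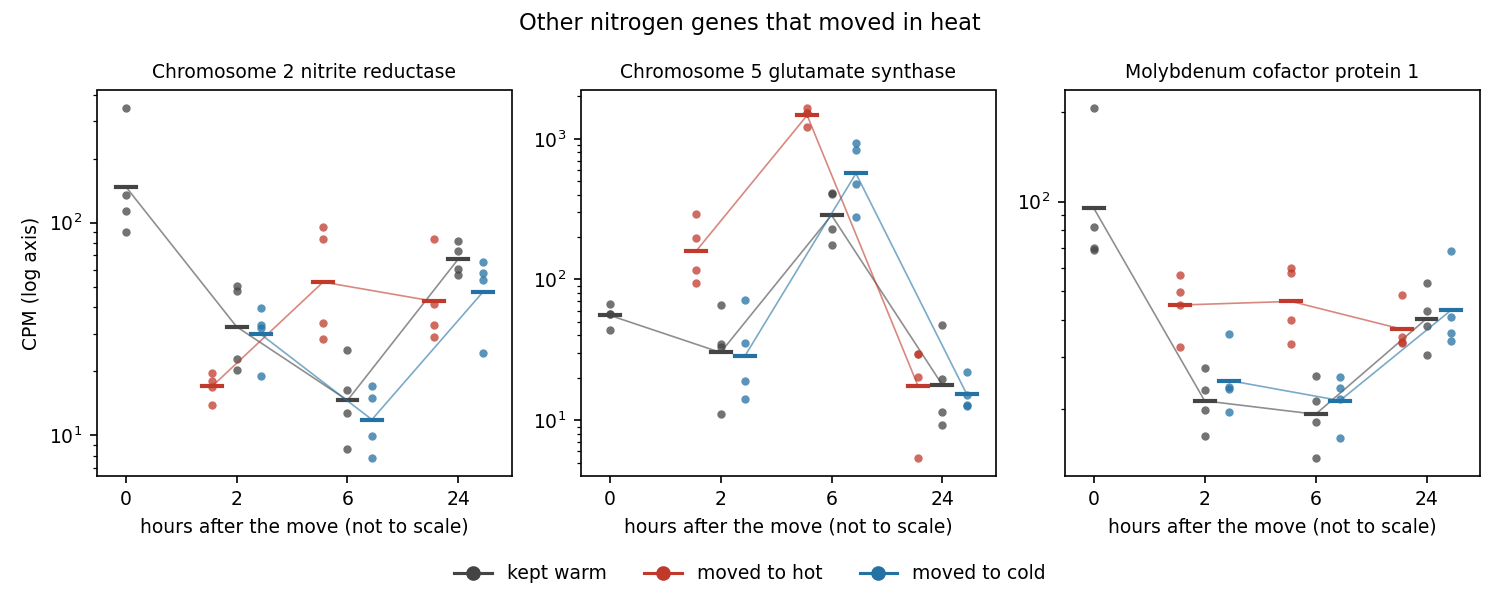
CPM on a log axis of the second nitrite reductase (LOC_Os02g52730), the chromosome 5 glutamate synthase (LOC_Os05g48200) and molybdenum cofactor biosynthesis protein 1 (LOC_Os02g15870) in all 40 libraries (points), with group geometric means (bars). At 6 h the hot libraries of each gene lie above all warm ones, and the glutamate synthase reaches 1204 to 1654 CPM.

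Between hot and cold leaves 5 of the 41 were higher and 4 lower at 2 h, where 15.1% of all genes were called, 6.73% higher and 8.32% lower. At 6 h 5 were higher and 3 lower, where 8.28% of all genes were called, 3.17% higher and 5.11% lower. A P-II nitrogen regulatory protein, LOC_Os05g04220, was chosen after its values were seen. P-II proteins are known as sensors of glutamine and carbon status. It held 15.95, 12.8, 10.2 and 12.0 CPM in hot leaves and 4.204, 4.94, 4.73 and 2.73 CPM in cold leaves at 6 h, a called difference of 1.63 ± 0.27 (adjusted p = 0.000117). Warm leaves at 6 h held 6.69, 7.88, 11.6 and 10.3 CPM, above every cold library and overlapping the hot ones. Against them neither change was called: hot was 0.49 ± 0.27 (adjusted p = 0.310) and cold -1.14 ± 0.27 (adjusted p = 0.411). The cold comparison at 6 h called 0% of all genes.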

How the data were processed

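The authors deposited a single table of log2 values, 19308 genes by 40 libraries, as limma voom writes them: log2 CPM with 0.5 reads added to each count. Per the labels' protocols, stranded total RNA libraries depleted of ribosomal RNA were read for 61 cycles, single end. Per the submitters' processing notes, limma 3.20.1 and edgeR 3.4.2 were used with featureCounts 1.5.0-p1 and Subread 1.5.0-p1, beside SAMtools 1.1-26, FastQC 0.11.2, bcl2fastq and bedtools; the genome build was IRGSP-1.0. How strand was handled in counting, and any filter on low genes, is not given in the sources used. Reads were recovered from the values: 100% were whole within 0.001. Total reads had a median of 5853252, and 3 reads stood for 0.293 to 2.06 CPM. This floor covers counting error alone, because the reads carry no molecular identifiers.

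All genes were fitted with limma 3.58.1 in R 4.3.3 as 1 model of the 10 groups, with an intensity trend and robust empirical Bayes, two-sided tests, and Benjamini-Hochberg adjustment over all genes per comparison. No count model was run, because the deposited unit is log2. The scripts were tested on simulated data. Differences within libraries used exact permutation tests (scipy 1.17.1), and plots used matplotlib 3.10.9 with Python 3.11.15. The members, lists and tests were chosen with earlier results of these data known. Of the other nitrogen genes, the text names the 3 with the smallest adjusted p among those called in each comparison with warm leaves, and for each member the 2 genes with the most similar group means. Alternatives covered scaling, offset, filter, empirical Bayes, groups, weights, lane, replicate blocks and libraries left out. Libraries with the same replicate number were not treated as pairs. No sequence or promoter was used here.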

Additional observations from a re-analysis of the deposited data

Results flagged for a closer look

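In 4 of 60 groups of 4 libraries 1 library lay far from the other 3, a share that chance alone gives in about 1 in 20 groups. The plastid glutamine synthetase (LOC_Os04g56400) was lowest in replicate 1 at warm 0 h, at 2075 CPM, and lowest in replicate 1 at warm 2 h, at 1556 CPM. The cytosolic glutamine synthetase (LOC_Os02g50240) was lowest in replicate 1 at warm 0 h, at 132 CPM, and highest in replicate 3 at warm 24 h, at 482 CPM. Warm 0 h replicate 1 is a library that stood apart over all genes, and warm 24 h replicate 3 has the fewest reads, 1830817.

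Hot and cold leaves of the same hour differed by a tested contrast in 4 member genes. Of all genes 15.1% were called at 2 h and 8.28% at 6 h. At 2 h the difference was -1.43 for the chromosome 8 nitrate reductase (LOC_Os08g36480), -4.02 for the chromosome 2 nitrate reductase (LOC_Os02g53130) and -0.89 for the cytosolic glutamine synthetase, on the log2 scale. At 6 h it was 2.19 for nitrite reductase (LOC_Os01g25484).

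Among the other nitrogen genes named, hot minus cold at 2 h was -1.63 for LOC_Os08g36500, 2.48 for LOC_Os05g48200, -2.56 for LOC_Os01g36720, 0.84 for LOC_Os02g15870 and 1.14 for LOC_Os05g04220. At 6 h it was 2.15 for LOC_Os02g52730, -2.45 for LOC_Os01g36720, 1.11 for LOC_Os02g15870 and 1.63 for LOC_Os05g04220. The low reads of LOC_Os01g36720 in hot leaves make its values depend on the offset. Without single libraries LOC_Os02g15870 was called at 2 h in 2 of 8 fits (adjusted p up to 0.130), and in 9 of 11 other settings, not with lane as a term or after a shift of libraries to a single median. LOC_Os01g36720 was called at 6 h in 4 of 8 fits without single libraries and in 9 of 11 other settings, with values from -3.40 to -1.05 over those settings. At 2 h its call was lost without hot 2 h replicate 4 (adjusted p = 0.0650).

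The heat effect differed between hours in 3 genes by limma's test, but each of these calls was lost in some fits without single libraries. For nitrite reductase the effect at 24 h minus that at 6 h was -2.37, for LOC_Os02g52730 it was -2.51 and for LOC_Os01g36720 it was 3.84. For LOC_Os02g52730 the effect at 6 h minus that at 2 h was 2.78. Without single libraries the 24 h minus 6 h difference was called in 9 of 16 fits for nitrite reductase, 11 of 16 for LOC_Os02g52730 and 5 of 16 for LOC_Os01g36720. In other settings it was called in 9, 10 and 7 of 11, and for LOC_Os01g36720 it ran from 2.03 to 3.84 there (adjusted p up to 0.155). The 6 h minus 2 h difference of LOC_Os02g52730 was called in 4 of 16 fits without single libraries and 5 of 11 other settings.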

How the results depend on the processing

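The count of members called at 2 h of heat was 1. It was 0 with quantile normalization or lane as a term, 2 with libraries shifted to a single median, log2 of CPM plus 1 or a filter on mean log2 of at least 1, 3 without both libraries that stood apart, 4 in a fit of only the groups compared, and 0 to 1 without single libraries. At 6 h of heat the count of 1 became 0 with lane as a term and 2 in a fit of only the groups compared, and was 1 without any single library. The replicate block, as a fixed term or within temperature, gave 2 members called at 2 h of heat, adding the chromosome 8 nitrate reductase (LOC_Os08g36480), and moved no other count by over 1.5 times. Same-numbered libraries correlated over 0.1 in 7 of 36 pairs of the same hour and 14 of 48 of the same temperature. All 4 pairs did so in 0 of 9 group pairs of the same hour and 1 of 12 of the same temperature, warm 2 h with warm 24 h. The numbers were therefore not taken to pair libraries.

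Between hot and cold at 2 h the count of 3 fell to 1 with quantile normalization and was 2 to 3 without single libraries; at 6 h it was 1 throughout. From 2 to 6 h in cold leaves the 6 calls became 3 with quantile normalization and 3 to 5 without single libraries. From 0 to 2 h in warm leaves the 2 calls became 1 with quantile normalization, with no trend and no robust estimation, with voom weights or in a fit of only the groups compared, and 1 to 2 without single libraries; from 2 to 6 h the 2 became 4 in a fit of only the groups compared and 2 to 3 without single libraries. The ranges without single libraries were 4 to 5 for the warm F test and for 6 to 24 h in warm and in hot leaves, 4 to 6 for 6 to 24 h in cold leaves, and 2 to 3 for 2 to 6 h in hot leaves. The heat effect at 6 h against 2 h went from 0 to 1 called without both libraries that stood apart and was 0 to 1 without single libraries. The added contrast of 24 h against 6 h went from 1 to 0 with quantile normalization or only the groups compared, and was 0 to 1 without single libraries. The cause of these moves was not tested.

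At 6 h of heat the change of the plastid glutamine synthetase turned to 0.058 and that of the glutamate synthase to 0.028 with lane as a term, and the former ran from -0.36 to 0.055 without single libraries. Over all 132 member changes, 35 of 1452 values under other settings and 68 of 1296 without single libraries turned sign, 0 of them from a called change; single values are tracked only for changes the text gives, a selection made after these turns were seen.

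Without single libraries the nitrate reductase minus nitrite reductase shift ran from -2.35 to -1.80 at 6 h of heat, -0.63 to -0.28 at 2 h, 0.32 to 0.52 at 24 h, 0.36 to 0.68 in cold at 2 h, -0.31 to 0.28 at 6 h and 0.24 to 0.50 at 24 h, with no test. The plastid minus cytosolic glutamine synthetase shift ran from 0.29 to 0.54, 0.14 to 0.35 and 0.08 to 0.58 in heat, and -0.17 to 0.09, 0.34 to 0.65 and -0.42 to -0.17 in cold.

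Over all genes the calls at 2 h of heat, 1584, were 553 with lane in the fit, 2639 with only the groups compared, 2705 without both libraries that stood apart and as few as 582 without single libraries; at 6 h, 1333 became 267, 2793, 2110 and 658. Between hot and cold, 2907 became 1767 with lane and 1664 without single libraries at 2 h, and 1599 became 957 with lane, 4365 with only the groups compared and 1009 without single libraries at 6 h. In warm leaves 4307 became 1813 from 0 to 2 h with only the groups compared, and 564 between the mornings became 1 with only the groups compared and 42 to 1507 without single libraries. The 13 for heat at 6 h against 2 h became 2 to 41, the 161 for 24 h against 2 h 31 to 711, and the 210 for 24 h against 6 h 74 to 638. Comparisons with 0 calls had up to 4 in the cold, 3 at 24 h of heat and 423 between hot and cold at 24 h. Shifting libraries to a single median moved the median of all genes from -0.07 to 0.04 between 6 and 24 h in warm leaves, and the share of calls that were higher from 23.1% to 40% and from 71.4% to 60.8% in the contrasts of 6 h with 2 h and 24 h with 6 h of heat. Lane is partly nested in temperature, which limits every comparison of hot with warm.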
